A study of Homo sapiens with 11 samples.

Results

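The genes of transcription factors best known from T cells and natural killer (NK) cells were followed in THP-1 cells, a human line from a monocytic leukaemia. They were ZBTB16, TBX21, EOMES, LEF1, TCF7, GATA3 and FOXP3. All 7 were found by name among the 594 endogenous probes of the deposited table. They were selected on their measured signal in these 4 groups, above all with and without dexamethasone, so their responses to dexamethasone are given as a description and not as tests.

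Dexamethasone (Dex) is a synthetic glucocorticoid that activates the glucocorticoid receptor, itself a transcription factor. The cells were monocytes, or macrophages made from them with the phorbol ester PMA for 3 h and 24 h of recovery. All cultures then spent 24 h in charcoal-stripped medium and received vehicle or 100 nM Dex for 6 h. The groups were vehicle-treated monocytes (Mono_Control, n = 3), Dex-treated monocytes (Mono_Dex, n = 3), vehicle-treated macrophages (Mac_Control, n = 3) and Dex-treated macrophages (Mac_Dex, n = 2). RNA was counted on the NanoString nCounter, which hybridizes a barcoded probe to each transcript without amplification. The authors left out 1 of the 12 samples of the design, a Dex-treated macrophage sample without a rise of FKBP5, so the rises in Mac_Dex are not independent of that choice. All cells came from 1 line, and the labels do not say that replicates were separate cultures, so the spread between them may be partly technical.

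As background, ZBTB16 (also called PLZF) is a zinc-finger factor that directs innate-like T cells, and it is a known glucocorticoid target in several tissues. TBX21 (T-bet) and EOMES are T-box factors that drive interferon gamma production and killing in T and NK cells. LEF1 and TCF7 (TCF-1) are HMG-box factors that carry Wnt signals and keep T cells in an early or naive state. GATA3 directs helper T cells of type 2, and FOXP3 defines regulatory T cells.

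Signal over all endogenous probes summed to between 372345 and 420466 units in each monocyte sample and to between 742895 and 889658 in each macrophage sample. A net count (the step of the value grid) was worth 0.659 to 0.965 units in monocyte samples and 1.21 to 1.52 in macrophage samples. A level of 20 units was taken as the floor. The highest negative control of a sample, put on the same scale, reached 5.91 to 12.9 units in the monocyte samples and 17.2 to 18.9 in the macrophage samples, so the floor lies close to background in macrophages. FKBP5, which binds the receptor complex and is a standard check of Dex action, lay at 1205 to 1259 units in Mono_Control, 24832 to 24990 in Mono_Dex, 407 to 623 in Mac_Control, and at 38036 and 37306 in Mac_Dex.

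Promoter sequences are shown for TBX21, EOMES and LEF1, the 3 low members whose Dex and vehicle samples did not overlap in at least 1 cell state. They are the 250 bases before the gene start from RefSeq (GRCh38.p14), written 5′ to 3′ on the gene's strand. Capitals mark AGAACA, the half-site of the glucocorticoid response element.
TBX21, chr17:47732986-47733235, plus strand: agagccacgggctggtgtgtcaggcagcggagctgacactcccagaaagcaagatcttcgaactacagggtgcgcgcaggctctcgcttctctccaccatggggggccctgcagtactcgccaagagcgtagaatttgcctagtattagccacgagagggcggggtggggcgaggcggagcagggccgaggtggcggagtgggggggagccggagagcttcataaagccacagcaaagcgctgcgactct
EOMES, chr3:27722324-27722573, minus strand: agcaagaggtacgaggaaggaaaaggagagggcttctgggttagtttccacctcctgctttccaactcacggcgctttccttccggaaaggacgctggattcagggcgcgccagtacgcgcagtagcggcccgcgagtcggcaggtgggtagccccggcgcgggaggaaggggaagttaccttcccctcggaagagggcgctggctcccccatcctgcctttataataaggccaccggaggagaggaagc
LEF1, chr4:108166302-108166551, minus strand: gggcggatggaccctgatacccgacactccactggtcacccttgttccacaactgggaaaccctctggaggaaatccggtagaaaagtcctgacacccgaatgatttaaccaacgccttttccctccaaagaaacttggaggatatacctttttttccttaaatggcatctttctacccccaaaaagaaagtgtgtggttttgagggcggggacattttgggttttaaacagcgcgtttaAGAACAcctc
The RefSeq promoter table matched 6 of the 7 members, with 12 windows. ZBTB16 was not matched. None of the 12 windows held the full element, AGAACA and then TGTTCT after any 3 bases, searched on both strands, which stood in 0.00285% of all 35116 promoters. The half-site, on either strand and also part of that palindrome, stood in 2 of the 12 windows, 1 each of LEF1 and TCF7, and in 12.4% of all promoters. The AP-1 motif TGANTCA, bound by the factors that PMA activates, stood in 1 of the 12 windows (GATA3) and in 6.57% of all promoters. These are matches of letters in a short window and not measured binding.

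ZBTB16 was the member that Dex switched on in both cell states, from near the floor to far above it. In Mono_Control it lay at 9.91, 17.9 and 25.0 units, and in Mono_Dex at 919, 944 and 969 units. In Mac_Control it lay at 16.5, 23.6 and 27.0 units, and in Mac_Dex at 2178 and 2193 units. Each Dex sample stood far above each vehicle sample of its state, and the vehicle samples of both states lay on either side of the floor. Replicates 3 and 6 of Mono_Control and 3 and 5 of Mac_Control lay above their highest negative control, and replicate 1 of each below it. Some signal was thus detectable with vehicle. The signal is a bulk value, in which more expressing cells and more RNA per cell cannot be told apart, for this gene and those below. In net counts, ZBTB16 went from between 10.4 and 38.0 to between 978 and 1247 in monocytes. In macrophages it went from between 13.6 and 22.1 to 1481 and 1443. The mean rose at least 47.2-fold in monocytes, to 944 ± 25.4 units (SD, n = 3), and 97.8-fold in macrophages, to 2185 ± 10.6 units (SD, n = 2). The macrophage fold rests on a vehicle mean of 22.3 ± 5.33 units (SD, n = 3), which is near the floor. The log2 change, here and below on the log2(value + 1) scale, was 5.75 (SE 0.25) in monocytes and 6.58 (SE 0.28) in macrophages. In units, the groups stood from high to low as Mac_Dex, Mono_Dex, Mac_Control and Mono_Control, and the last 2 overlapped. With Dex, the macrophage mean was 2.31-fold the monocyte mean. Summed signal over all endogenous probes was also higher, at 831833 and 889658 units in Mac_Dex against 413358 to 420466 in Mono_Dex. Among those probes ZBTB16 ranked 69 and 70 in Mac_Dex and 74 to 76 in Mono_Dex. The part of scaling in this fold was not tested.

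**Figure D1:**
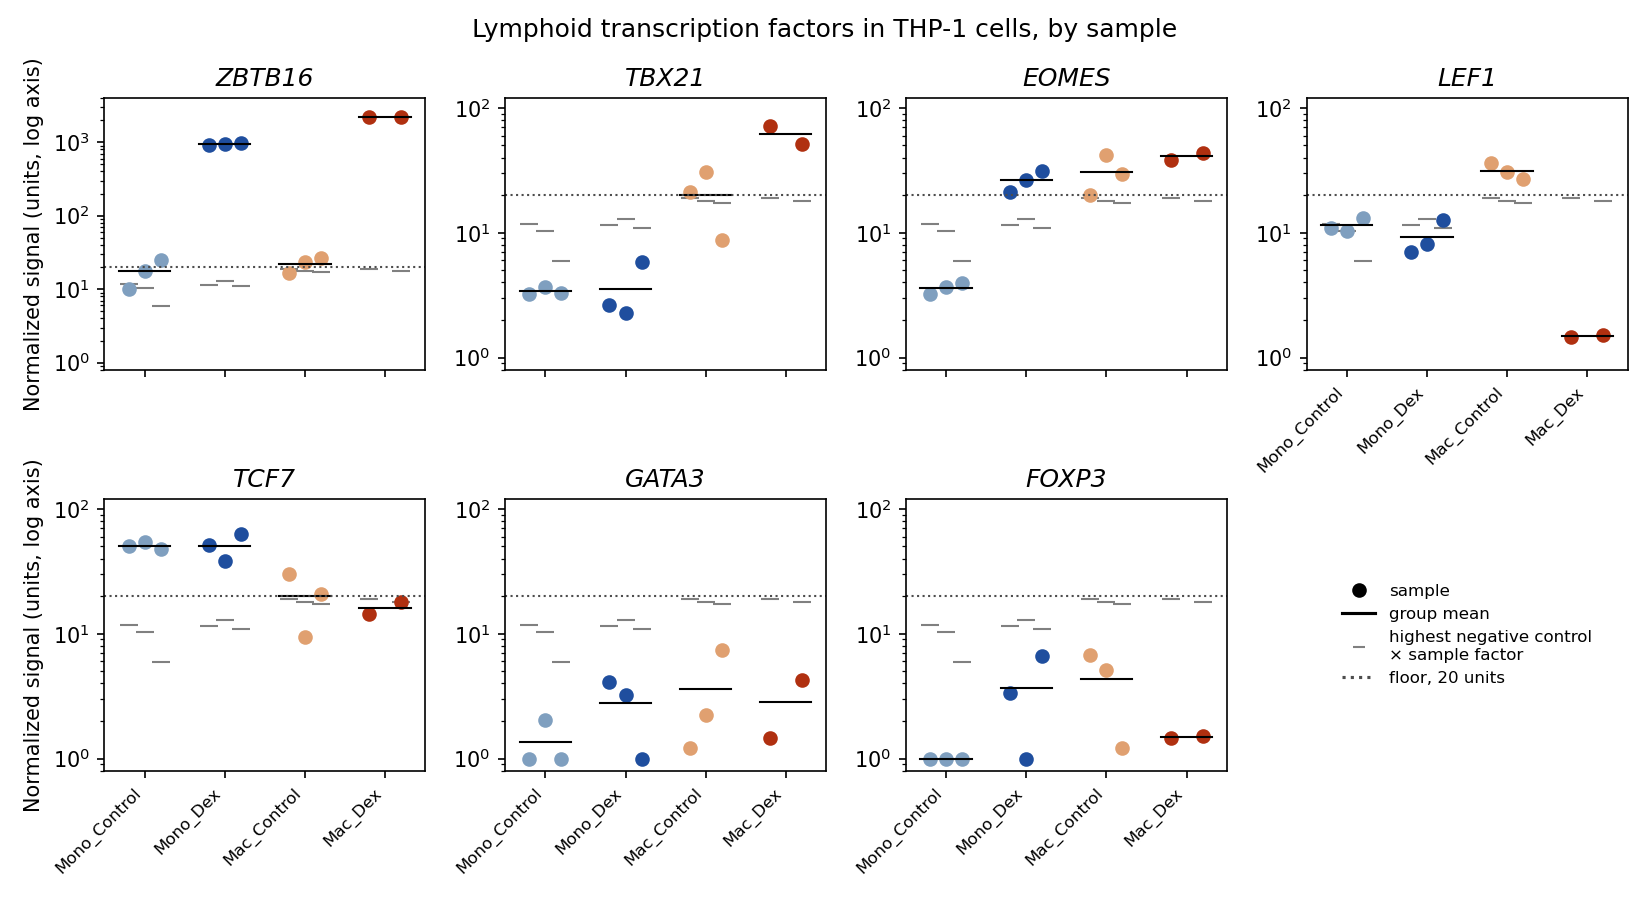
Normalized signal (units, log axis) of the 7 genes in each of the 11 samples, by group; points are samples, black bars group means, grey dashes the highest negative control of each sample times its sample factor, and the dotted line is the floor of 20 units. ZBTB16 lies between 9.91 and 27.0 units with vehicle and between 919 and 2193 with Dex, TBX21 passes 50 units only in Mac_Dex, LEF1 is at the lowest value in Mac_Dex, and GATA3 and FOXP3 stay under the floor in all samples.

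The T-box genes TBX21 and EOMES were low and behaved differently from each other. TBX21 was at 3.24, 3.71 and 3.27 units in Mono_Control and at 2.62, 2.28 and 5.83 in Mono_Dex, all under the floor. In Mac_Control it lay at 21.4, 30.7 and 8.68 units, and in Mac_Dex at 71.9 and 51.3. Both Dex-treated macrophage samples stood above the 3 vehicle samples, and the monocyte groups overlapped. The macrophage mean went from 20.2 ± 11.03 (SD, n = 3) to 61.6 ± 14.5 units (SD, n = 2), a 3.04-fold difference that rests on a vehicle mean at the floor. In net counts these were 17.6, 21.6 and 7.12 with vehicle against 48.8 and 33.8 with Dex. The log2 change was 1.70 (SE 0.51) in macrophages and -0.02 (SE 0.45) in monocytes.

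EOMES crossed the floor with Dex in monocytes. It was at 3.24, 3.71 and 3.93 units in Mono_Control and at 21.1, 26.4 and 31.5 in Mono_Dex, with 3.40 to 5.97 net counts in the first group and 27.4 to 36.8 in the second. These groups did not overlap, and all 3 Dex samples lay above their highest negative control, which reached 12.9 units. The mean went from 3.63 ± 0.353 to 26.3 ± 5.21 units (SD, n = 3 each). Since the vehicle mean is under the floor, this is a rise of at least 1.32-fold, and the log2 change of 2.55 (SE 0.31) depends on the pseudocount. In macrophages EOMES was already present with vehicle, at 20.2, 42.0 and 29.4 units, and lay at 38.0 and 43.7 with Dex. There the groups overlapped, with means of 30.5 ± 10.97 (SD, n = 3) and 40.9 ± 4.03 units (SD, n = 2) and a log2 change of 0.47 (SE 0.35). Mono_Dex, Mac_Control and Mac_Dex followed each other in rising order of the mean in units, and Mac_Control overlapped both of its neighbours. In net counts this order did not hold, with 16.6, 29.6 and 24.1 in Mac_Control and 25.8 and 28.8 in Mac_Dex.

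The HMG-box genes LEF1 and TCF7 showed 2 further patterns. LEF1 was at 35.9, 30.7 and 27.0 units in Mac_Control and at 1.47 and 1.52 units in Mac_Dex. Both of the latter are the lowest value that the table holds for those samples, so LEF1 was not above background there. In net counts the vehicle samples had 29.6, 21.6 and 22.1. LEF1 thus fell below the floor with Dex in macrophages, at least 1.56-fold, from 31.2 ± 4.50 units (SD, n = 3). The log2 change of -3.68 (SE 0.37) has no fixed size, because the Dex samples hold a lowest value and not a measured one. In monocytes LEF1 stayed under the floor in each sample, at 10.9, 10.4 and 13.2 units with vehicle and 7.04, 8.07 and 12.7 with Dex.

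TCF7 differed between the cell states, and its Dex and vehicle samples overlapped in each state. It was at 50.9, 53.9 and 47.4 units in Mono_Control and at 51.3, 38.0 and 63.1 in Mono_Dex. It was at 29.9, 9.34 and 20.9 units in Mac_Control and at 14.5 and 17.9 in Mac_Dex. Neither Mac_Dex sample, nor Mac_Control replicate 3, lay above its highest negative control (18.9, 17.9 and 17.9 units). A fall with Dex in macrophages could therefore hardly be measured. The monocyte means were 50.7 ± 3.23 and 50.8 ± 12.5 units (SD, n = 3 each). The log2 change with Dex was -0.03 (SE 0.35) in monocytes and -0.16 (SE 0.39) in macrophages. Each monocyte sample stood above each macrophage sample.

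GATA3 and FOXP3 stayed under 20 units in every sample. GATA3 had its highest value of 7.46 units in a Mac_Control sample, and 5 of the other samples held the lowest value of their sample. FOXP3 had its highest value of 6.80 units, also in Mac_Control, and 7 of the 11 samples held the lowest value. Each of these values lay below the highest negative control of its sample, so neither gene was detectable here in any group.

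The highest group mean was 31.2 units for LEF1, the lowest of the members above the floor, and 4.37 units for FOXP3, the highest of those below it. Across the members, 5 of 7 reached a group mean of 20 units in at least 1 group, as did 379 of the 594 endogenous probes. With Dex in monocytes, 2 of these 5 (ZBTB16 and EOMES) were higher and none was lower without overlap of the groups, where 23.7% of the 379 probes were higher and 30.9% lower. With Dex in macrophages, 2 of the 5 (ZBTB16 and TBX21) were higher and 1 (LEF1) was lower, where 27.4% of the probes were higher and 31.1% lower. LEF1 is among the 5 only through Mac_Control, the group where it is high, so its count as lower is not read as a result. The difference of the Dex responses, macrophages minus monocytes in log2, was 0.82 (SE 0.38) for ZBTB16, 1.72 (SE 0.68) for TBX21, -2.08 (SE 0.47) for EOMES, -3.37 (SE 0.49) for LEF1 and -0.13 (SE 0.52) for TCF7. For each of the 5, at least 1 group in it lies under the floor.

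**Figure D2:**
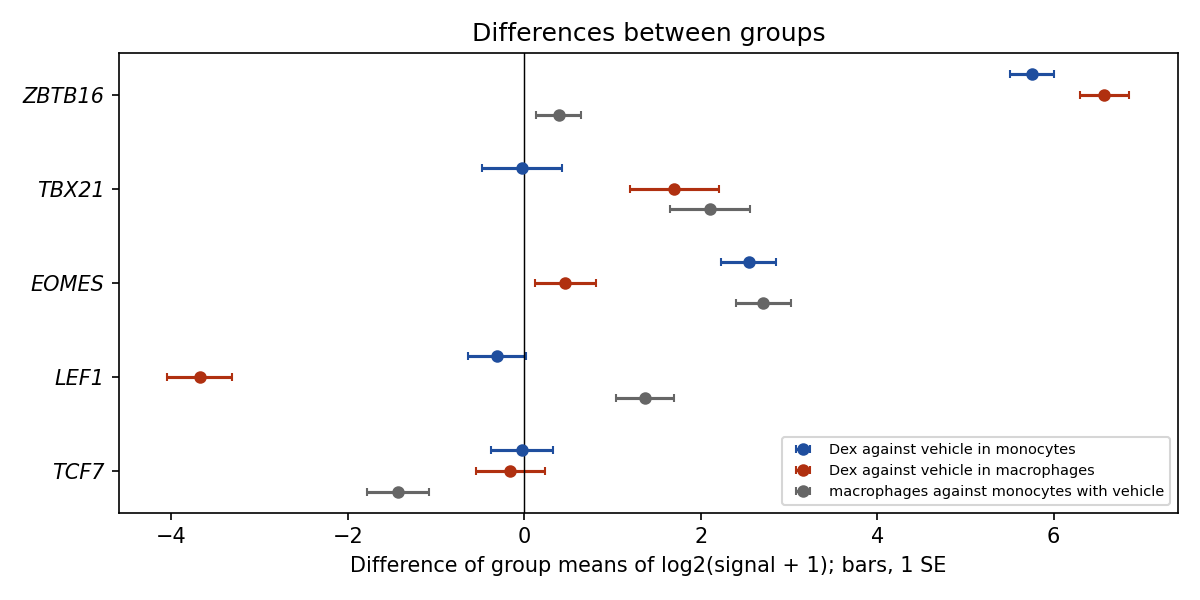
Differences of group means of log2(signal + 1) with 1 SE from the fit over all 11 samples, for the 5 members that reached the floor; blue, Dex against vehicle in monocytes, red, the same in macrophages, grey, macrophages against monocytes with vehicle. ZBTB16 is far above 0 with Dex in both states (5.75 and 6.58), LEF1 far below 0 with Dex in macrophages (-3.68), and TCF7 below 0 between the states (-1.43).

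The vehicle groups were among the values on which the members were selected, so their difference between macrophages and monocytes is also a description. The log2 difference, macrophages minus monocytes, was 2.11 (SE 0.45) for TBX21, 2.71 (SE 0.31) for EOMES, 1.36 (SE 0.33) for LEF1, -1.43 (SE 0.35) for TCF7 and 0.39 (SE 0.25) for ZBTB16. The first 3 were higher and TCF7 lower in macrophages without overlap of the groups, and the ZBTB16 samples overlapped. For TBX21, EOMES and LEF1 the monocyte mean is under the floor, and LEF1 reached the floor only in Mac_Control. Of all 379 probes, 65.2% were higher and 19.8% lower in macrophages without overlap. In limma 84.7% were called, 65.2% higher and 19.5% lower, and the median log2 difference was 0.72. With each sample centred on its median, the share of higher genes among all calls went from 76.9% to 45.6%, and the median to -0.20. The differences then were 1.19 for TBX21, 1.80 for EOMES, 0.45 for LEF1 and -2.35 for TCF7, and ZBTB16 turned to -0.53. With quantile normalization they were 0.89 for TBX21, 1.48 for EOMES, 0.24 for LEF1, -2.56 for TCF7 and -0.73 for ZBTB16.

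The genes most like each member were ranked by Pearson r of log2(value + 1) over the 11 samples, which fall into 4 groups, so that r mostly follows the group means. ZBTB16 was most like FKBP5 (r = 0.97), the lymphocyte and phagocyte receptor SLAMF1 (0.96), the interleukin 13 receptor chain IL13RA1 (0.93), the adaptor TRAF5 (0.91) and the complement gene C1QB (0.91). SLAMF1 had means of 6.86 units in Mono_Control, 400.2 in Mono_Dex, 2.14 in Mac_Control and 286 in Mac_Dex. TRAF5 and C1QB lay under the floor except in Mac_Dex, at 22.2 ± 2.55 and 37.7 ± 8.72 units (SD, n = 2). TBX21 was most like IL6ST (0.97), GPI (0.97), CTNNB1 (0.96), BCL10 (0.96) and MCL1 (0.96), whose group means lay between 488 and 18925 units and were highest in Mac_Dex for all 5. EOMES was most like NFKBIA (0.95), the inhibitor of NF-kB, and CD163 (0.94), a haemoglobin scavenger receptor, then ICAM3 (0.90), SOCS1 (0.89) and LCP2 (0.88). CD163 was at the lowest value in Mono_Control and at 39.3, 177 and 653 units in Mono_Dex, Mac_Control and Mac_Dex. LEF1 was most like NFATC2 (0.91), CSF2RB (0.90), IKBKE (0.90), LAIR1 (0.89) and CX3CR1 (0.86), and the fractalkine receptor CX3CR1 went from 356 ± 55.0 to 114 ± 11.2 units with Dex in macrophages. TCF7 was most like TMEM173 (0.93), CEACAM6 (0.92), S100A9 (0.92), STAT4 (0.89) and RUNX1 (0.89), of which STAT4 and RUNX1 are also transcription factors of lymphocytes. Between members, r was 0.62 for ZBTB16 with EOMES and for TBX21 with EOMES, and 0.27 for ZBTB16 with TBX21. It was -0.83 for TBX21 with TCF7, -0.76 for ZBTB16 with LEF1 and -0.64 for EOMES with TCF7. The other pairs lay between -0.30 and 0.07.

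**Figure D3:**
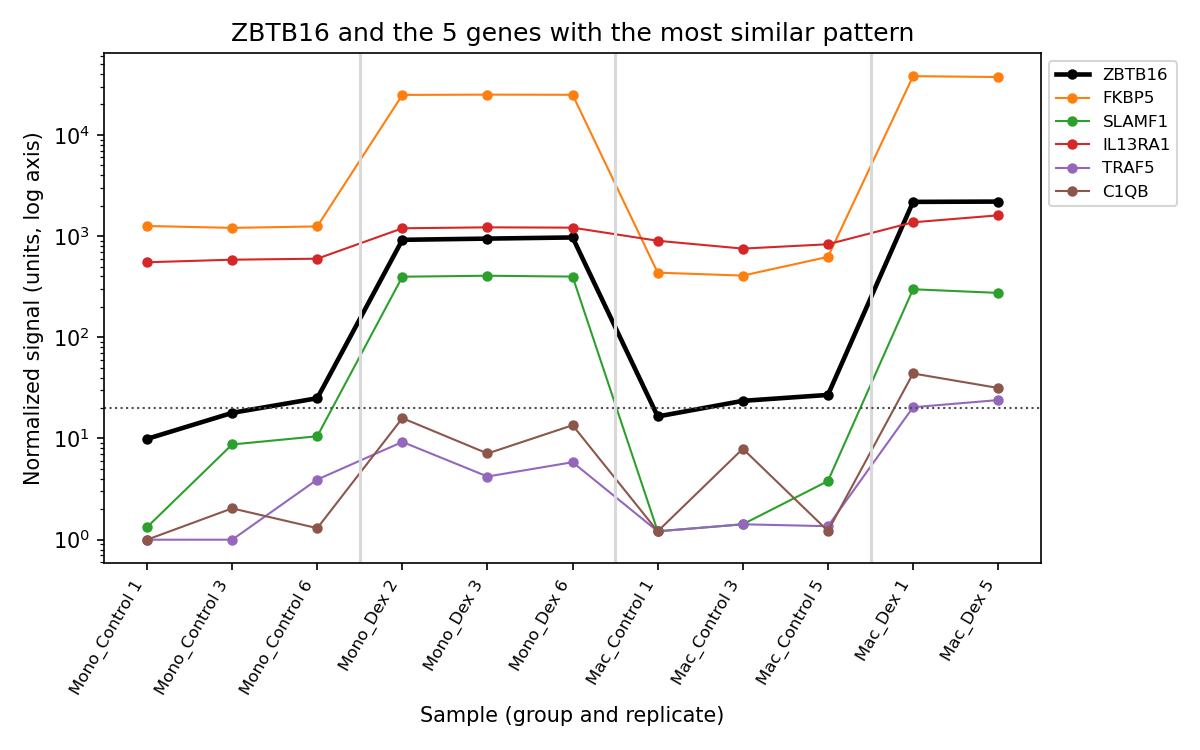
Normalized signal (units, log axis) of ZBTB16 and the 5 genes with the highest Pearson r to it, in each of the 11 samples; the dotted line is the floor of 20 units and grey lines separate the groups. All 6 genes are higher with Dex in each state, and TRAF5 and C1QB stay under the floor except in Mac_Dex.

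Markers of T cells, NK cells and myeloid cells were examined for the whole lists. These lists and those below were chosen with earlier results of these data known, which limits their counts and p-values. Of 17 T-cell markers, none reached a group mean of 20 units in any group, and they summed to between 28.8 and 40.6 units per monocyte sample and between 48.8 and 65.6 per macrophage sample. The T-cell receptor chain CD3D was at 1.00 unit in both monocyte groups and at 2.48 and 2.85 in macrophages with vehicle and Dex. The kinase LCK was at 1.00 unit in both monocyte groups and at 2.03 and 1.495 in macrophages. The 1.00 units of both genes and the 1.495 of LCK in Mac_Dex are the lowest values of those samples. That lowest value was 1.00 in monocyte samples and 1.21 to 1.52 in macrophage samples, so these differences and those of the sums are not read as rises. CD27, a costimulatory receptor, was the nearest to the floor, with 19.2 units in Mac_Dex. Of 25 NK-cell markers, 22 stayed under the floor, and the others were NCAM1, the adhesion molecule CD56, and the granule genes GNLY and GZMA. All 11 myeloid markers reached the floor in at least 1 group, 9 in Mono_Control, 8 in Mono_Dex, 10 in Mac_Control and 10 in Mac_Dex. Their sums were 2923 to 3014 units in Mono_Control, 2051 to 2221 in Mono_Dex, 27092 to 30109 in Mac_Control and 22456 and 23697 in Mac_Dex. With Dex 6 of these 11 fell in monocytes and 2 in macrophages, and none rose (limma, adjusted p under 0.05). Of all tested probes 22.2% fell and 16.9% rose in monocytes, and 25.1% fell and 22.4% rose in macrophages. The summed NK-cell markers were 1645 to 1675, 2000 to 2142, 3358 to 3830, and 4096 and 4155 units in the same order, most of it NCAM1. The NCAM1 mean was lower with Dex in macrophages, at 2791 against 3452 units. In monocytes it was 1516 against 1602 units, where the groups overlapped and NCAM1 was not called (limma adjusted p = 0.291). GNLY was higher with Dex in both states and GZMA in macrophages. The part of such shifts in the members' levels was not tested.

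**Figure D4:**
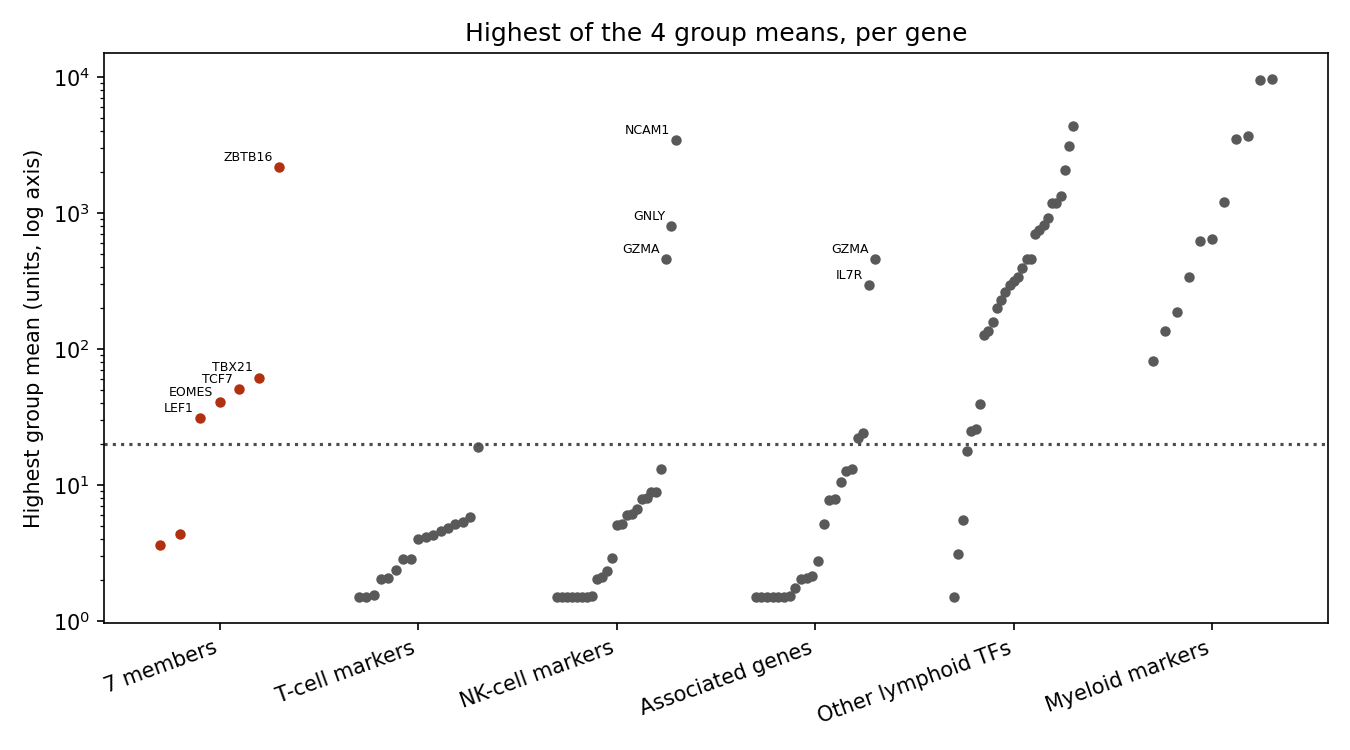
Highest of the 4 group means (units, log axis) for each gene of the 7 members and of 5 lists; the dotted line is the floor of 20 units, and names are given to members above the floor and, in 2 lists, to genes above 40 units. T-cell markers all lie under the floor, 3 NK-cell markers lie above it, and all myeloid markers lie above it.

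Genes known as targets or companions of these factors in lymphocytes mostly had group means under the floor too. Of 22 on the panel, 18 stayed under 20 units in each group. Of the 4 tested (limma, adjusted p under 0.05), none rose and 1 fell with Dex in monocytes, and 2 rose and 1 fell in macrophages, where 39.1% and 47.5% of all tested probes were called. Their median log2 change in monocytes was 0.15, against -0.03 over all tested probes. CXCR3, GZMA and IL18R1 had means under the floor in both monocyte groups, so this median is not read as a shift of the list. The CXCR3 means there were 14.4 units in Mono_Control and 17.5 in Mono_Dex. The 2 that rose in macrophages, GZMA and IL18R1, reached 20 units only in Mac_Dex, so no macrophage median is compared. GZMA, a granule protease of killer cells, held the lowest value of each Mac_Control sample, 1.21 to 1.42 units. It was at 457 ± 31.9 units in Mac_Dex (SD, n = 2). In both monocyte groups it was under the floor. GNLY, a cytolytic granule protein of the NK-cell list, rose with Dex in both states, from 15.9 ± 4.21 to 528 ± 3.93 units in monocytes (SD, n = 3 each; limma adjusted p = 1.42e-11). In macrophages it rose from 114 ± 16.5 (SD, n = 3) to 799 ± 10.7 units (SD, n = 2; limma adjusted p = 1.82e-08). IL7R, the interleukin 7 receptor of T cells, fell from 90.8 ± 10.2 to 10.0 ± 3.96 units in monocytes (SD, n = 3 each; -3.11, limma adjusted p = 8.34e-08). In macrophages it fell from 295 ± 25.9 (SD, n = 3) to 149 ± 25.5 units (SD, n = 2; -0.99, limma adjusted p = 0.00531), a call that ended without Mac_Dex replicate 1 (-0.81, adjusted p = 0.0608). IL18R1, a receptor chain for interleukin 18, was at 14.9 and 29.2 units in Mac_Dex, with the other groups under the floor. Its log2 change in macrophages was 2.45, and 2.02 without Mac_Control replicate 1, where it was no longer called. GZMA and IL18R1 passed the filter of 20 units only through Mac_Dex, the group in which they were called higher. No p-value is therefore given for them, and their count as rises is not read as a result about the list. CXCR3 is a chemokine receptor that T-bet induces in T cells. It was at 24.2 ± 7.70 units in Mac_Control (SD, n = 3) and 16.3 ± 8.76 in Mac_Dex (SD, n = 2). Its log2 change of -0.61 was not called. CXCR3 passed the filter only through Mac_Control, the higher of these groups, so no p-value is given for it either. NCAM1 went from 3452 ± 227 (SD, n = 3) to 2791 ± 28.6 units (SD, n = 2) in macrophages (-0.30, limma adjusted p = 0.000749), which was not called after centring on the median (-0.08, adjusted p = 0.398).

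Other transcription factors known from lymphocytes were common in these cells: 25 of 29 on the panel reached the floor. With Dex in monocytes 6 of the 25 rose and 3 fell, where 39.1% of all 379 tested probes passed, 16.9% rising and 22.2% falling (limma, adjusted p under 0.05). The list's median log2 change was -0.03, and the median over all tested probes was -0.03. NFIL3, a basic leucine zipper factor needed for NK cells, rose from 337 ± 23.4 to 487 ± 30.03 units (SD, n = 3 each; 0.53, limma adjusted p = 2.06e-05). BATF3, a factor of cross-presenting dendritic cells, rose by 0.39, and BCL6, the repressor of follicular helper T cells and germinal centres, by 0.60 in log2. BCL6 was at 37.7 ± 4.70 and 58.7 ± 14.2 units, and its call ended without Mono_Control replicate 1, Mono_Dex replicate 3 or Mono_Dex replicate 6 (adjusted p = 0.0604, 0.0698 and 0.0638). PRDM1 (Blimp-1), which drives terminal differentiation of lymphocytes, fell from 182 ± 10.7 to 117 ± 9.52 units (SD, n = 3 each), and IKZF1 (Ikaros) from 314 ± 23.6 to 226 ± 23.1. EGR2, an early growth response factor, fell from 17.4 to 5.26 units, both under the floor (-1.74, and -1.09 without Mono_Dex replicate 2).

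With Dex in macrophages 7 of the 25 rose and 11 fell, where 47.5% of all tested probes passed, 22.4% rising and 25.1% falling. The list's median log2 change was -0.15, against -0.03 over all tested probes. NFIL3 rose from 1258 ± 42.4 (SD, n = 3) to 2062 ± 96.5 units (SD, n = 2; 0.71, limma adjusted p = 2.33e-06). BATF rose by 0.60 and BATF3 by 0.50 in log2. EGR2 fell from 459 ± 52.1 (SD, n = 3) to 127 ± 2.82 units (SD, n = 2), a log2 change of -1.84. TCF4 (E2-2), an E protein of plasmacytoid dendritic cells, fell from 127 ± 9.76 (SD, n = 3) to 42.6 ± 25.2 units (SD, n = 2), a log2 change of -1.68. Its Mac_Dex samples lay at 24.8 and 60.4 units, and the change was -1.05 without Mac_Dex replicate 1 and -2.30 without Mac_Dex replicate 5. BCL6 fell from 747 ± 97.6 (SD, n = 3) to 382 ± 32.9 units (SD, n = 2), a log2 change of -0.96, where its monocyte values had been higher with Dex. With each sample centred on its median, 9 of the 25 rose and 9 fell in macrophages, and 8 rose and 3 fell in monocytes. Over all genes that centring moved the median log2 change to 0.12 in monocytes and 0.19 in macrophages, and the share of rises among calls from 43.2% to 61.5% and from 47.2% to 67.3%. The Dex response differed between the states for 5 of the 25 (limma, interaction term), all lower in macrophages, where 25.9% of all tested probes passed, 12.4% lower and 13.5% higher. These were BCL6, TCF4, POU2F2, NOTCH1 and NFATC3; the last 3 were named after their values were seen. The difference for TCF4 (-1.26, limma adjusted p = 0.0399) no longer passed in 12 of its 19 alternatives, among them the omission of any 1 of 9 samples.

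**Figure D5:**
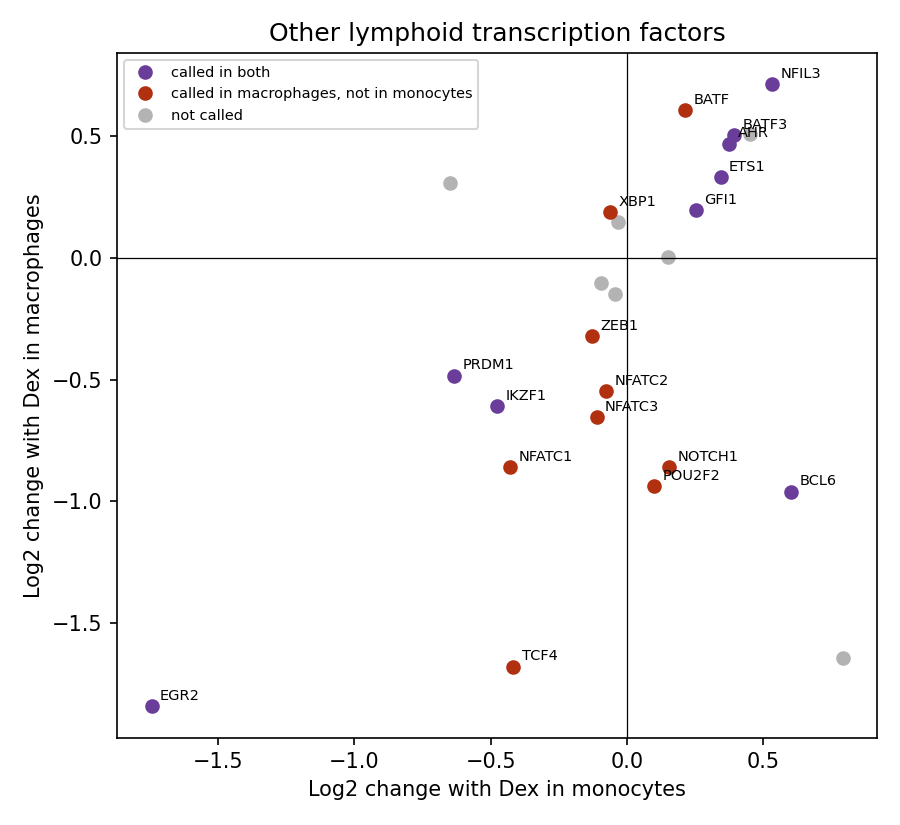
Log2 change with Dex in monocytes (horizontal axis) against that in macrophages (vertical axis) for the 25 other lymphocyte transcription factors that reached the floor; purple, called in both states, red, called in macrophages and not in monocytes, grey, not called. NFIL3 lies at 0.53 and 0.71, and BCL6 at 0.60 and -0.96.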

How the data were processed

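The deposited table holds a linear signal per probe for 11 samples. Per the labels' protocols, the authors prepared 50 ng of total RNA per sample, and per the series design they checked the samples in nSolver. Its version, the reference genes and any background step are not stated in the labels. The deposited signal is normalized and not raw: in each sample 100% of the low values lay within 0.1 of a step on a regular grid, a sample factor times a net count. Values were tested by lmFit and eBayes of limma 3.58.1 (R 4.3.3) after log2(value + 1), taken here, over 379 probes with a group mean of at least 20 units, all 4 groups in 1 fit, with a trend of the variance on the mean and p-values adjusted by Benjamini-Hochberg within each comparison; 0.05 was the threshold. Folds are ratios of group means, with a mean under 20 set to 20 and then given as "at least". The test was run on simulated data first. A test of the members between the vehicle groups was planned and is not reported, since those values were among the ones the members were chosen on. Members and lists were chosen with earlier results of these data known. Other genes were named by rule: the 5 most correlated with a member, the 3 largest called rises and falls among other lymphocyte factors, and marker or associated genes that reached 20 units. A list of markers of another cell type is not reported here. Alternatives were other pseudocounts, filters, scalings, a 2-group fit, no trend, a replicate block and leaving out each sample.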

Additional observations from a re-analysis of the deposited data

Results flagged for a closer look

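Among the named genes, 5 had a Dex response that differed between macrophages and monocytes by the interaction term in limma. The difference, macrophages minus monocytes in log2, was 7.57 for GZMA, which passed the filter of 20 units only through Mac_Dex. Its call is therefore given as a description, without a p-value. The others were -2.20 for GNLY (limma adjusted p = 1.31e-05), 2.12 for IL7R (adjusted p = 0.00036), -1.56 for BCL6 (adjusted p = 0.000572) and -1.26 for TCF4 (adjusted p = 0.0399). GZMA was under 20 units in 3 of the 4 groups, and GNLY and IL7R each in 1 monocyte group, so these sizes depend on the pseudocount. The difference for TCF4 no longer passed when any 1 of 9 of the 11 samples was left out (adjusted p from 0.0564 to 0.203), with a replicate block (-1.13, adjusted p = 0.21), without the trend (adjusted p = 0.0738) or with no filter on low values (adjusted p = 0.114).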

How the results depend on the processing

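The members' Dex changes kept their direction wherever they were at least 1 in log2, but their size followed the pseudocount. With a pseudocount of 20, ZBTB16 changed by 4.70 in monocytes and 5.71 in macrophages, EOMES by 0.96 in monocytes, TBX21 by 1.05 and LEF1 by -1.25 in macrophages. With a pseudocount of 5, EOMES changed by 1.85 and LEF1 by -2.47. With quantile normalization LEF1 changed by -3.29. Without 1 sample each, ZBTB16 ranged from 5.41 to 6.04 in monocytes and 6.38 to 6.72 in macrophages, and TBX21 from 1.21 to 2.07 in macrophages. Between macrophages and monocytes with vehicle, ZBTB16 turned to -0.53 after median-centring and -0.73 with quantile normalization, was 0.56 with a replicate block, and ranged from 0.047 to 0.67 without 1 sample each, with 0.67 without Mono_Control replicate 6. TBX21 was 0.89 with quantile normalization, and LEF1 was 0.45 after median-centring and 0.24 with quantile normalization; the cause was not tested. The count of associated genes called with Dex in monocytes went from 1 to 2 after median-centring and with only the 2 groups compared, and ranged from 1 to 2 without 1 sample each. In macrophages it was 3, and 1 to 3 without 1 sample each; it was 1 without Mac_Dex replicate 1. Among the other factors, calls with Dex in monocytes ended for BCL6 (adjusted p = 0.0693) and EGR2 (adjusted p = 0.0605) with only the groups compared and for IKZF1 with a replicate block (adjusted p = 0.0533). In macrophages the call of PRDM1 ended after median-centring (adjusted p = 0.0581) and without Mac_Dex replicate 1 (adjusted p = 0.0543). Same-numbered samples deviated from their group means with r of 0.23 and 0.18 in monocytes and -0.28 and -0.41 in macrophages, and the labels do not say that a number marks a shared culture. With a replicate block, 109 genes were called with Dex in monocytes (148 without it) and 158 in macrophages (180 without it). Low net counts, under 40 for TBX21 and EOMES in most samples, limit the precision of these genes.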
